A study of Mus musculus with 9 samples.

Results

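The plasminogen activators and their inhibitors were examined in the mouse line SCCVII, which was started from an oral squamous cell carcinoma. Of the 5 genes chosen by name, the activators Plau and Plat, the receptor Plaur and the inhibitor Serpinb2 were measured by 6 single-gene probe sets, out of 34944 such probe sets for 18193 genes, and Serpine2 was not analysed here. The study compared 3 groups of 3 Affymetrix arrays each. IR lines came from tumours that parental cells had formed in stroma irradiated before the injection, and NIR lines came from tumours formed in stroma that was not irradiated. PA was the parental culture itself, kept under standard conditions, and all 3 groups descend from it. The labels describe IR tumours as hypoxic and IR lines as still invasive and metastatic after growth in normoxic culture, and NIR tumours and lines as poorly so. The labels do not say whether a group's 3 samples are separate tumours, lines or cultures, so p-values measure the spread between these samples, which may be technical.

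Plasminogen is an abundant inactive protease of plasma and tissue fluid that the activators cut into plasmin. Urokinase, the product of Plau, does this mostly at cell surfaces, where the GPI-anchored receptor encoded by Plaur holds it, and tissue plasminogen activator, the product of Plat, does it mostly on fibrin. Serpins bind the activators covalently and stop them, and the complexes are taken up by receptors of the LDL receptor family. Plasmin dissolves fibrin, cuts matrix proteins and activates other proteases, and for this reason the urokinase system is a textbook candidate in tumour invasion.

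Of the 4 measured genes, 0 passed limma's test in IR against NIR, 0 in IR against PA and 0 in NIR against PA at a Benjamini-Hochberg adjusted p below 0.05. Over all 18193 genes the share called was 1.65% for IR against NIR, 1.06% for IR against PA and 1.3% for NIR against PA. The 12 differences were 0.043 to 0.30 in size on the log2 scale, with adjusted p from 0.268 to 0.875. At an unadjusted p below 0.05 there were 3 of 12, with 1 in each comparison, where 15.9% of all genes reached that level for IR against NIR, 8.59% for IR against PA and 12.1% for NIR against PA. The widest 95% interval reached a 1.46-fold difference, so larger differences lay outside the intervals of all 12. The F test over the 3 groups likewise called 0 of 4, against 2.34% of all genes, with adjusted p from 0.293 for Plaur to 0.704 for Plat.

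The probe sets differed in how far they stood above the dim end of the arrays. The median probe set had a mean log2 value of 4.49. The probe set of Plaur had a higher mean than 81.7% of single-gene probe sets and the brighter one of Plat than 66.2%. Those of Plau stood above 31.8% and 8.45%, the dimmer one of Plat above 25.2% and that of Serpinb2 above 4.43%. For Plau and Serpinb2 the values were therefore at a level where a probe set can read mostly background, and the intervals there describe the spread of a dim signal. No detection call was used here.

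**Figure D1:**
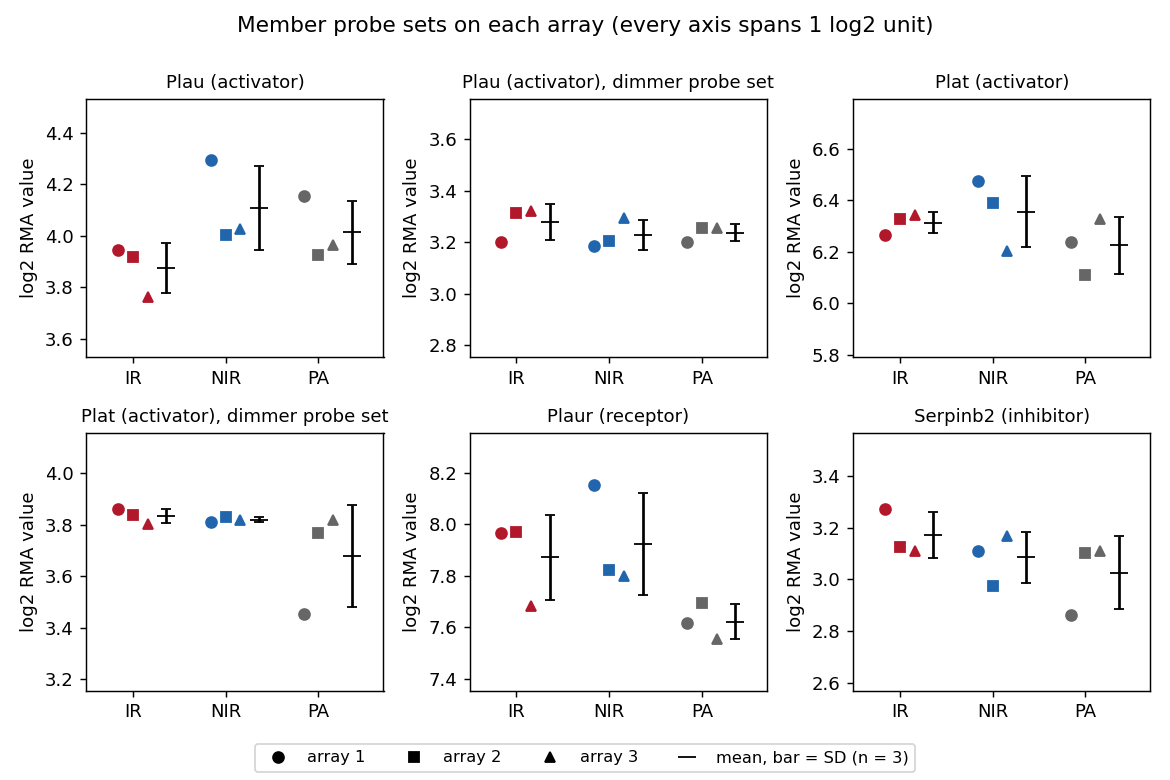
Log2 RMA values of the 6 member probe sets on each array, in the order IR, NIR and PA, with the mean and SD of 3 arrays beside the points. Plaur sits lowest in PA, at 7.56 to 7.69, with IR3 inside that range, and NIR1 is the highest array for Plaur and for the brighter probe sets of Plau and Plat.

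Urokinase itself, Plau (Entrez Gene 18792, chromosome 14), was read by a pair of probe sets, both dim. The brighter one read 3.94, 3.92 and 3.76 in IR, 4.29, 4.003 and 4.03 in NIR, and 4.15, 3.92 and 3.97 in PA. The IR arrays all lay below the NIR arrays, by 0.058 at the nearest, whereas IR overlapped with PA and NIR overlapped with PA. Arrays that do not overlap in this comparison are common, at 18.1% of all genes tested. Plau was lower in IR than in NIR by a log2 difference of -0.23 (SE 0.097, 95% interval -0.45 to -0.019, limma adjusted p = 0.268), which did not pass. Its differences were -0.14 for IR minus PA (limma adjusted p = 0.778) and 0.094 for NIR minus PA (adjusted p = 0.763). The order of the means, 3.88 in IR, 4.11 in NIR and 4.01 in PA, thus had no neighbours that differed beyond the test.

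The second probe set of Plau did not follow that order. It read 3.20, 3.31 and 3.32 in IR, 3.19, 3.20 and 3.29 in NIR, and 3.20, 3.26 and 3.26 in PA, and all groups overlapped. Its difference of 0.050 for IR minus NIR had the opposite sign (95% interval -0.10 to 0.20, limma adjusted p = 0.821 over every probe set). In that fit 0 of the 6 member probe sets were called in any comparison, against 0.881% of all 34944 probe sets for IR against NIR, 0.69% for IR against PA and 0.836% for NIR against PA. IR3 was the lowest of the 9 arrays on the brighter probe set, at 3.76, and the highest on this one, at 3.32. Averaging both probe sets gave -0.091 for IR minus NIR (limma adjusted p = 0.515).

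Tissue plasminogen activator, Plat (Entrez Gene 18791, chromosome 8), varied least among the 4 genes, with an SD of 0.107 over the 9 arrays. Its brighter probe set read 6.27, 6.33 and 6.34 in IR, 6.47, 6.39 and 6.204 in NIR, and 6.24, 6.11 and 6.33 in PA. All 3 groups overlapped, and the lowest NIR array lay below every IR array while the highest lay above them. The differences were -0.043 for IR minus NIR (95% interval -0.23 to 0.15, limma adjusted p = 0.871), 0.086 for IR minus PA (-0.10 to 0.28, adjusted p = 0.870) and 0.13 for NIR minus PA (-0.059 to 0.32, adjusted p = 0.604). On a linear scale these intervals end at 1.17-fold, 1.21-fold and 1.25-fold.

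The dimmer probe set of Plat read 3.803 to 3.86 in IR, 3.81 to 3.83 in NIR, and 3.45, 3.77 and 3.82 in PA. PA1 alone stood apart, at 3.45, and the other arrays of PA lay close to those of the derived lines. The differences were 0.014 for IR minus NIR, 0.15 for IR minus PA and 0.14 for NIR minus PA, with limma adjusted p of 0.973, 0.760 and 0.636 over every probe set.

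The urokinase receptor, Plaur (Entrez Gene 18793, chromosome 7), was read by 1 probe set and had the largest differences of the 4 genes. It read 7.97, 7.97 and 7.68 in IR, 8.15, 7.82 and 7.80 in NIR, and 7.62, 7.69 and 7.56 in PA. All NIR arrays lay above all PA arrays, by 0.10 at the nearest, and 15.5% of all genes showed no overlap in that comparison. IR1 and IR2 also lay above PA, but IR3 fell within the PA range, and IR and NIR overlapped. Of the 4 genes 0 were free of overlap between IR and PA, against 14.7% of all genes.

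Plaur was 1.23-fold higher in NIR than in PA (log2 difference 0.30, SE 0.11, 95% interval 0.065 to 0.54), with an unadjusted limma p of 0.0171 and an adjusted p of 0.276. It was 1.19-fold higher in IR than in PA (0.25, SE 0.11, interval 0.012 to 0.49), with an unadjusted limma p of 0.0414 and an adjusted p of 0.555. These 2 comparisons share the PA arrays, and neither passed over all genes. IR and NIR means were 7.87 ± 0.16 and 7.93 ± 0.20 (SD, n = 3 each), a difference of -0.053 (interval -0.29 to 0.18, limma adjusted p = 0.875). The IR and NIR means could not be put in order, since the sign of their difference turned to 0.042 without IR3 and to 0.061 without NIR1 (limma adjusted p = 0.925 and 0.842). Without NIR1 the difference between NIR and PA was 0.19 (limma adjusted p = 0.481).

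**Figure D2:**
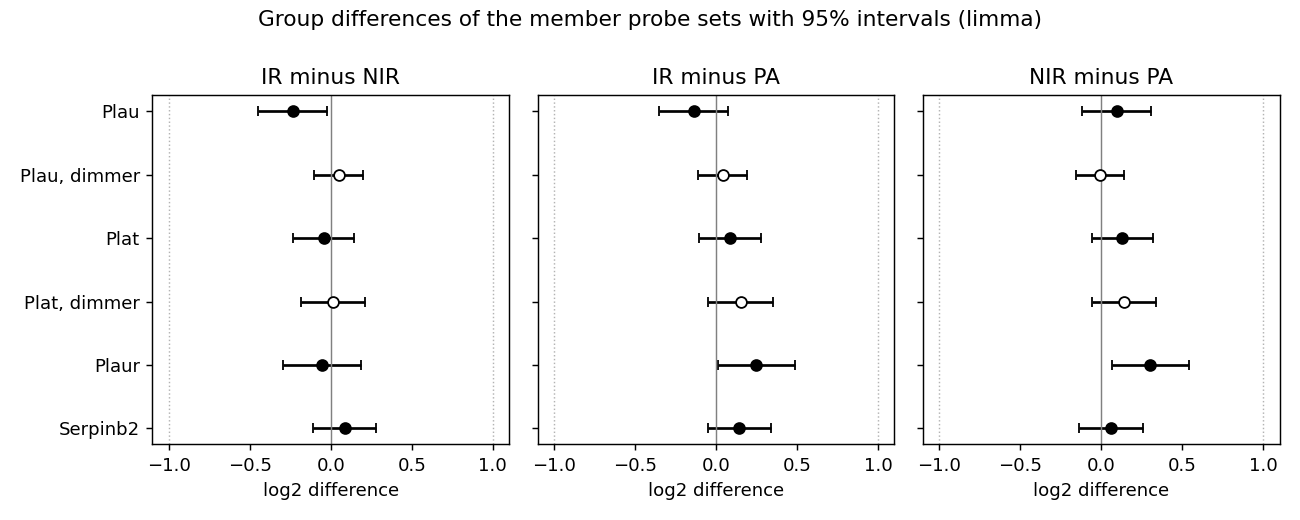
Log2 differences between groups for the 6 member probe sets (points) with limma's 95% intervals (bars), filled for the probe set that stood for its gene and open for the dimmer one, with dotted lines at a 2-fold difference. All intervals lie inside the dotted lines, and 3 of the 12 filled points have intervals that do not reach 0, namely Plau for IR minus NIR and Plaur for both comparisons with PA.

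Serpinb2 (Entrez Gene 18788, chromosome 1) encodes plasminogen activator inhibitor type 2, a clade B serpin made mainly by macrophages, keratinocytes and trophoblast. It read 3.27, 3.13 and 3.11 in IR, 3.11, 2.97 and 3.17 in NIR, and 2.86, 3.10 and 3.11 in PA. These values are near the bottom of a range that began at 2.47 on these arrays, and all 3 groups overlapped. The differences were 0.086 for IR minus NIR (95% interval -0.11 to 0.28, limma adjusted p = 0.713), 0.14 for IR minus PA (-0.051 to 0.34, adjusted p = 0.735) and 0.059 for NIR minus PA (-0.14 to 0.25, adjusted p = 0.855). Without PA1, its lowest array, the difference between NIR and PA was -0.023.

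The stretches of 250 bases before the start sites of Plaur and Serpinb2 are shown because urokinase system genes are textbook targets of AP-1 and EGR1, and genes for these factors differed between the groups on the same arrays. They come from a table of RefSeq promoters (GRCm38.p6), in which 2 of the 4 measured genes were matched. The Plaur stretch is chr7:24462233-24462482 and the Serpinb2 stretch, the first of 2 overlapping entries, is chr1:107511173-107511422, both on the plus strand. Capitals mark the AP-1 motif TGANTCA and the EGR1 motif GCGNGGGCG, searched on both strands.
Plaur: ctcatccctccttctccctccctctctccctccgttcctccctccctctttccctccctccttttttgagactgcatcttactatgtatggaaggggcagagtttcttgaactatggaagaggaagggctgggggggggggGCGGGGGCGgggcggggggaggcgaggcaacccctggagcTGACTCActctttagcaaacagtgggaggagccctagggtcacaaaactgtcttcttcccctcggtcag
Serpinb2: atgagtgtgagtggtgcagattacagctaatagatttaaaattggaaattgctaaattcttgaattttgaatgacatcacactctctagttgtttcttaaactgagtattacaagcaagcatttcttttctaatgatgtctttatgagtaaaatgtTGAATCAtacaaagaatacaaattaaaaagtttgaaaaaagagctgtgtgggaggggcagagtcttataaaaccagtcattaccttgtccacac

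Each stretch held 1 AP-1 motif, from 69 to 63 bases before the start in Plaur and from 94 to 88 in Serpinb2. Counted from the start of the second Serpinb2 entry, the same motif lay 181 to 175 bases before it. The EGR1 motif occurred once in Plaur, from 109 to 101 bases before the start, and 0 times in Serpinb2. It overlapped with GC boxes (GGGCGG, bound by Sp1), of which Plaur had 3. Among 32851 RefSeq stretches of the same length, 6.75% held the AP-1 motif, 4.70% the EGR1 motif and 32.7% a GC box. A match is a match of letters and not a measured site.

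Among 13 measured genes for transcription factors known to act on urokinase system genes, 2 rose and 1 fell in IR against NIR. In IR against PA 2 rose and 0 fell, and in NIR against PA 1 rose and 1 fell. Over all genes the share called was 1.65%, 1.06% and 1.3%. The list was chosen with earlier results of these data known, so its counts are no test of it. Its median log2 differences were -0.099, 0.017 and -0.060. Egr1, a growth factor-induced zinc finger factor, read 8.62, 8.51 and 9.02 in IR, 4.26, 5.18 and 4.90 in NIR, and 6.94, 6.34 and 6.97 in PA. Its groups were thus in the order IR, PA, NIR with no overlap, and it differed in each comparison (log2 differences 3.94, 1.97 and -1.97, limma adjusted p = 1.27e-05, 0.000942 and 0.000736). The NIR values are close to the median probe set, so the size of that difference is uncertain. The Plaur mean on the same arrays was lowest in PA, though no difference passed, and IR and NIR could not be put in order. A link between Egr1 and Plaur was not tested.

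Fosl1, which encodes the AP-1 subunit FRA-1, was highest in NIR. It read 9.62, 9.53 and 9.70 in IR, 9.94, 10.36 and 9.996 in NIR, and 9.61, 9.62 and 9.55 in PA, so that NIR lay apart from both other groups. It fell in IR against NIR by 0.48 (limma adjusted p = 0.0428) and rose in NIR against PA by 0.51 (adjusted p = 0.0365). The first call was lost without any single array but NIR1 (adjusted p up to 0.119, without IR2) and the second without IR1, IR2, PA1, PA2 or PA3 (up to 0.151, without PA3), and both were lost with the compared groups alone or the replicate number as a block. Fos, another AP-1 subunit with a dim signal, rose in IR against NIR by 0.80 (limma adjusted p = 0.00244) and against PA by 0.50 (adjusted p = 0.0182). The call against PA was lost without IR1, IR3, PA2 or PA3 (highest limma adjusted p 0.104, without PA2) and with the block. Within NIR, Plaur was highest in NIR1 and Fosl1 in NIR2. A link between Fosl1 or Fos and Plaur was not tested.

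**Figure D3:**
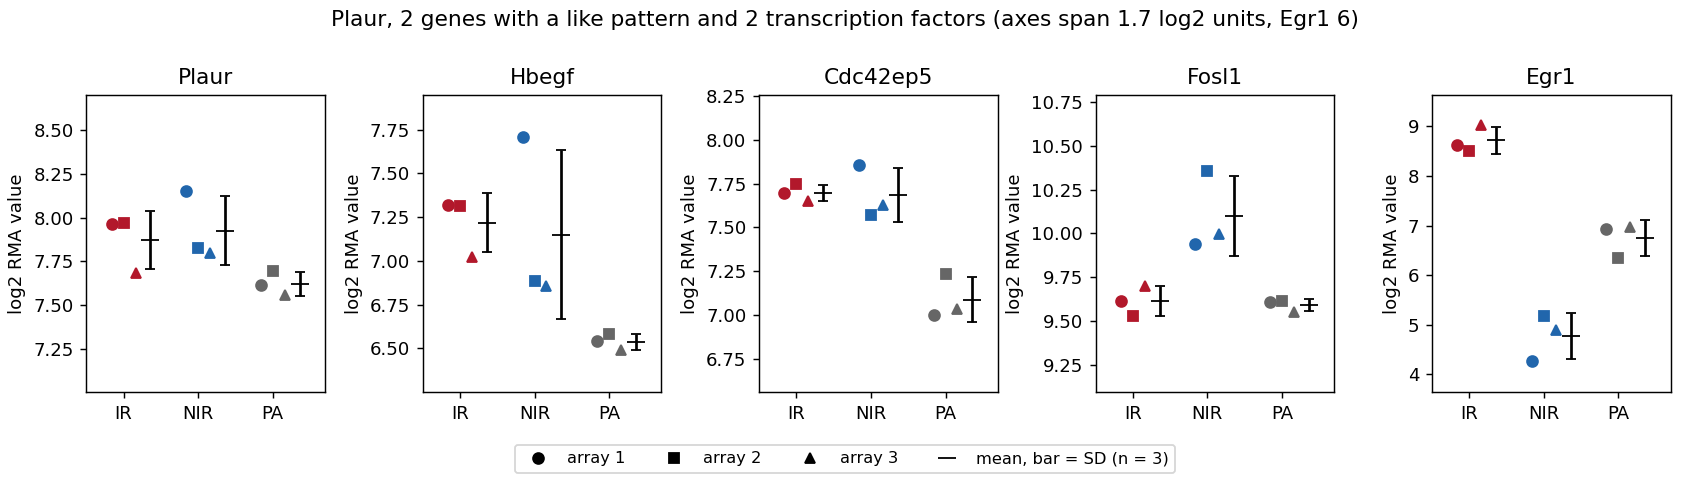
Log2 RMA values of Plaur, Hbegf, Cdc42ep5, Fosl1 and Egr1 on each array, in the order IR, NIR and PA, with the mean and SD of 3 arrays beside the points. Hbegf, picked for its likeness to Plaur, shares with it NIR1 as the highest array and the lowest mean in PA. Its IR3 lies above every PA array, whereas that of Plaur lies within the PA range. Fosl1 is highest in NIR and Egr1 in IR.

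The gene most like Plaur was Hbegf, which encodes an EGF receptor ligand that is shed from the cell surface. Likeness was Pearson's r over the 9 arrays among 344 genes with a mean of at least 6 and an SD of at least 0.3. It is given as a description with no test. Genes were picked on these same arrays, so a group pattern shared with the member follows in part from the choice. Their p-values are no separate evidence on the member. For Hbegf r was 0.94, for Cdc42ep5, which encodes an effector of the GTPase CDC42, it was 0.85, and for Duoxa1, which encodes a maturation factor of the dual oxidases, 0.84. Hbegf read 7.32, 7.31 and 7.02 in IR, 7.71, 6.89 and 6.86 in NIR, and 6.54, 6.58 and 6.49 in PA. IR and NIR arrays thus all lay above PA, and the excess of NIR1 over the other NIR arrays and the low value of IR3 within IR were those seen for Plaur.

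Hbegf did not pass either, with log2 differences of 0.68 for IR minus PA (SE 0.19, limma adjusted p = 0.170), 0.61 for NIR minus PA (adjusted p = 0.181) and 0.069 for IR minus NIR (adjusted p = 0.909). Cdc42ep5 rose in IR against PA by 0.61 (limma adjusted p = 0.0063) and in NIR against PA by 0.60 (adjusted p = 0.00671), comparisons that share the PA arrays. Both calls were lost by a small margin without PA1 (limma adjusted p = 0.0504 each), and with the mean of its probe sets the first was lost too.

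For Plat the genes most like it were Mtss1 (r = 0.80), which encodes an actin-binding scaffold, the metalloprotease gene Adam19 (r = 0.75) and the MAP kinase phosphatase gene Dusp16 (r = 0.72). None of the 3 passed in any comparison, and the lowest limma adjusted p was 0.0537, for Mtss1 in NIR minus PA (log2 difference 0.59). For the dim probe set of Plau they were the chemokine gene Ccl5 (r = 0.85), Ttc39c (0.84) and the quinone reductase gene Nqo1 (0.79). These 3 fell in IR against NIR, by 0.69, 0.69 and 0.77 on the log2 scale (limma adjusted p = 0.0421, 0.026 and 0.0154). Being picked for likeness to Plau, they share its direction in part by that choice. Of 9 fits that left out 1 array, the Ccl5 call was lost in 8 (limma adjusted p up to 0.130, without IR3). The Ttc39c call was lost in 6 (up to 0.082, without IR3) and the Nqo1 call in 1 (0.0501, without NIR1). Ccl5 was also lost with every probe set and with the block, and Ttc39c with averaged probe sets. All 3 were lost with IR and NIR fitted alone (0.163, 0.131 and 0.0863). Those most like Serpinb2 were Lgalsl (r = 0.66), Psg28 (0.66) and Tm7sf2 (0.59). Lgalsl rose in IR by 0.58 against NIR and by 0.53 against PA (limma adjusted p = 0.0266 and 0.0432). Tm7sf2 rose by 0.52 and 0.74 (limma adjusted p = 0.0404 and 0.00439), and Psg28 passed in no comparison. Leaving out 1 array lost the Lgalsl calls in 5 and 7 of 9 fits and the Tm7sf2 calls in 8 and 0. Both calls against NIR were lost with IR and NIR fitted alone. The block or every probe set lost Lgalsl against PA and Tm7sf2 against NIR.

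**Figure D4:**
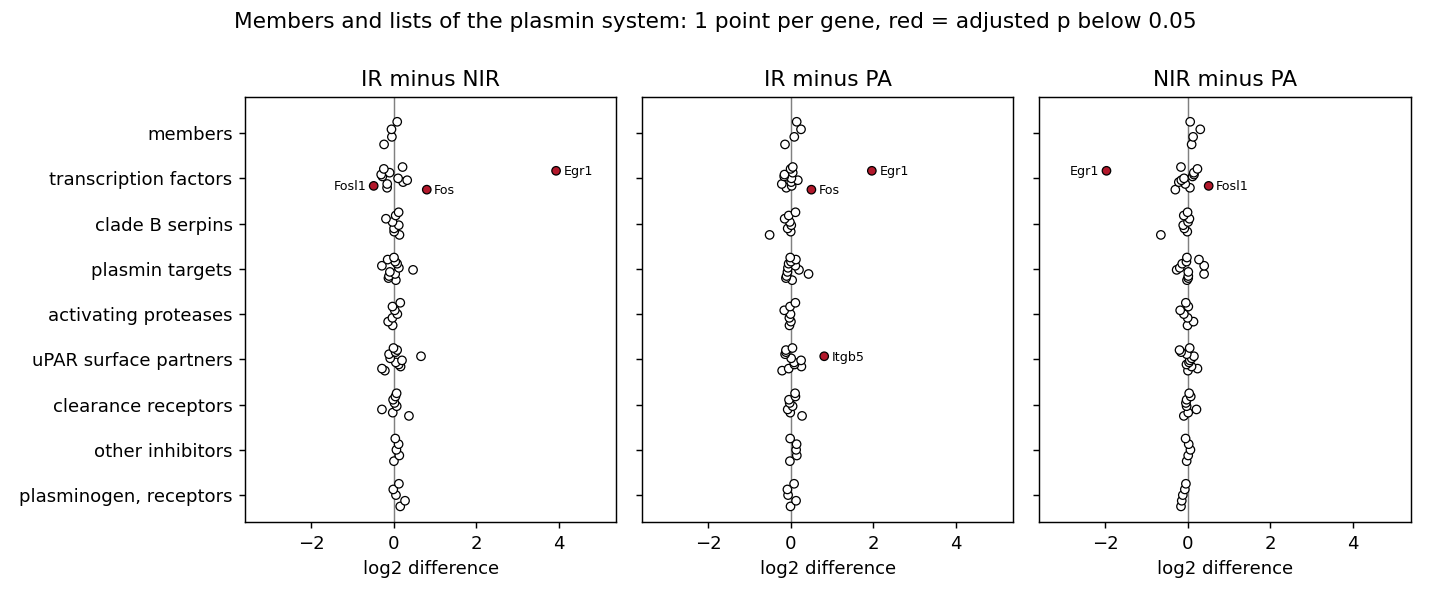
Log2 differences of the 4 members (top row) and of the genes of 8 lists, 1 point per gene, with genes of limma adjusted p below 0.05 in red and named. The members reach 0.30 at most, and outside the transcription factors Itgb5 in IR minus PA is the sole red point.

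Around the members, 57 of 63 other genes of the system were measured, in 7 lists. Of these 57, 0 passed in IR against NIR (1.65% of all genes), 1 rose in IR against PA (1.06%) and 0 passed in NIR against PA (1.3%). Their median log2 differences were 0.039, -0.0050 and -0.011, next to 0.0014, 0.0043 and 0.0046 for all genes. The 1 gene was Itgb5, a beta chain of the vitronectin-binding integrins that act beside the urokinase receptor, at 0.81 (limma adjusted p = 0.0483). That call was lost when any array except NIR1 or NIR2 was left out (limma adjusted p up to 0.236, without PA1), and with every probe set tested.

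Of 5 measured genes for plasminogen and its surface receptors 0 passed, and 4 had a positive difference for IR minus NIR and 5 of 5 a negative one for NIR minus PA. Anxa2 and S100a10, which form the annexin A2 complex that binds plasminogen, differed by 0.056 and -0.0097 between IR and NIR (limma adjusted p = 0.801 and 0.967), and Plgrkt, a membrane receptor of plasminogen, by 0.28 (adjusted p = 0.183). Plasminogen, Plg, averaged 3.92 in IR, 3.76 in NIR and 3.92 in PA, among the dim probe sets. Of 8 genes listed for the clearance of activator-inhibitor complexes, among them the receptor genes Lrp1 and Vldlr, 0 passed in any comparison. Their median log2 differences were 0.031, 0.017 and -0.0084. The 7 other proteases that cut pro-urokinase or plasminogen had 0 genes that passed and medians from -0.024 to -0.0058. The 5 measured other inhibitors also had 0, with medians from 0.011 to 0.13, as did the 12 measured targets of plasmin, with medians from -0.0040 to 0.022.

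Of 8 other clade B serpins 0 passed, but the tests of Serpinb1a, an inhibitor of neutrophil proteases, depended on NIR1. Serpinb1a averaged 6.89 ± 0.038 for IR, 6.75 ± 0.55 for NIR and 7.40 ± 0.067 for PA (SD, n = 3 each). With all arrays its log2 difference was -0.65 for NIR minus PA (limma adjusted p = 0.186), -0.51 for IR minus PA (0.460) and 0.14 for IR minus NIR (0.801). Without NIR1 it was -0.97 for NIR minus PA (limma adjusted p = 0.000223) and 0.46 for IR minus NIR (0.0402). The IR minus PA difference does not use NIR1 and stayed at -0.51. Its limma adjusted p was then 0.00459, since the groups share 1 estimate of the spread, and 0.00712 with IR and PA fitted alone. NIR1 was also the highest of the 9 arrays for the tested probe sets of 3 of the 4 members.

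The labelled cell type was checked on 10 squamous and epithelial markers. The simple keratins Krt8 and Krt18 averaged 12.7 to 12.8 and 11.4 to 11.96 over the groups, and 6 of the 10 had a mean above that of the median probe set. The other 4 of these were the epithelial adhesion gene Epcam (mean 6.05), the squamous marker Sfn (6.45) and the basal and squamous keratins Krt6a (5.13) and Krt5 (4.93). The 4 below it were the basal markers Krt14 (3.87) and Trp63 (4.26), the epithelial cadherin Cdh1 (3.29) and the desmosomal gene Dsp (3.29). Krt18 rose in IR by 0.57 against NIR and by 0.55 against PA (limma adjusted p = 0.018 and 0.0146), the 1 marker of these 10 that passed. The first call was lost without IR1, IR2 or IR3 (limma adjusted p up to 0.0609) and with IR and NIR fitted alone (0.105), and the second without IR1, IR2 or any 1 PA array (up to 0.0901). Macrophages, which make urokinase receptor and Serpinb2, were followed by 13 markers, of which 9 had a mean below 5 and 0 passed in any comparison. Their list mean was 4.68 to 5.10 in IR, 4.63 to 4.74 in NIR and 4.48 to 4.61 in PA. Of the 13, 12 were higher in IR than in PA and 8 were higher in NIR than in PA. The macrophage list mean was thus lowest in PA, as the Plaur mean was, but NIR and PA were barely apart, at 4.63 in NIR3 and 4.61 in PA3. Lyz2 had the largest NIR minus PA difference of the list, at 0.94 (limma adjusted p = 0.520), next to a median of 0.063 over the 13. The highest array of the list was IR3, in which Plaur was the lowest of the IR arrays, at 7.68. Much of that IR3 excess came from Lyz2 (8.25, against 5.71 in IR1 and 5.78 in IR2) and Cd68 (5.83, against 4.81 and 4.71). Not every marker had it, since Csf1r and Adgre1 were not highest in IR3 within IR. Fibroblast markers, 10 in number, had list means of 7.11 to 7.22 in IR, 6.96 to 7.32 in NIR and 6.76 to 6.92 in PA. They were likewise lowest in PA. In level, 7 of them had a mean above the median probe set and 3 below it, next to 6 and 4 of the squamous and epithelial markers. In PA alone Col1a2 averaged 11.28, Col3a1 11.25 and Pdgfra 9.15, while Thy1, Postn and Fap lay below the median probe set. These counts therefore did not set squamous cells apart from fibroblasts. Of the 10 fibroblast markers, 1 rose in IR against PA (Dcn) and 2 in NIR against PA (Dcn and Lum). The Dcn call in NIR against PA was lost in 7 of 9 fits that left out 1 array (limma adjusted p up to 0.178), with the block, with every probe set and with averaged probe sets, and the Lum call in 5 of 9 (up to 0.119) and with the block. The part of either marker list in the Plaur values was not tested. Of 7 measured endothelial markers, and of 7 measured markers of neutrophils and lymphocytes, 0 passed in any comparison.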

How the data were processed

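RNA from 9 SCCVII samples was purified with a Qiagen kit and hybridized by the standard Affymetrix procedure, per the labels' protocols. The deposited values are log2 expression values made by the authors with RMA, per the submitters' processing notes; its version and settings are not given in the sources used here. They ran from 2.47 to 14.0 with array medians of 4.45 to 4.52, so nothing was rescaled. The number of arrays limits the precision.

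Probe sets were named from the platform annotation and updated through Entrez identifiers against RefSeq (GRCm38.p6), which matched 34740 of 34944 single-gene probe sets. Each gene was tested by its probe set with the highest mean. limma 3.58.1 in R 4.3.3 fitted all 9 arrays with a mean per group and no covariates (lmFit, eBayes, 2-sided, 6 residual and 5.48 prior degrees of freedom), adjusting by Benjamini-Hochberg over all genes with a threshold of 0.05. The other member probe sets came from the same fit over every probe set. The procedure was tested on simulated data.

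Members and gene lists were chosen with earlier results of these data known. Named are the members, the 3 genes most like each (r over 9 arrays), up to 4 called genes of each list, and any gene needed to spell out a count of 5 or fewer. Anxa2, S100a10, Plgrkt, Plg, Lrp1, Vldlr, Serpinb1a and the markers named were chosen after their values were seen. Alternatives were a filter on signal, other choices of probe sets, renormalization, other eBayes settings, the compared groups alone, a replicate block and each array left out. Figures were drawn with matplotlib 3.10.9.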

Additional observations from a re-analysis of the deposited data

How the results depend on the processing

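Under 18 alternative settings, 9 of which left out 1 array each, the number of members called stayed at 0 in each comparison and in the F test, in 71 of 71 recomputations. Of 210 recomputed member differences, 206 kept their direction and none passed. The 4 that turned were uncalled and lay near 0: Plat in IR minus NIR (0.016 without NIR1), Plaur in IR minus NIR (0.042 without IR3, 0.061 without NIR1) and Serpinb2 in NIR minus PA (-0.023 without PA1). Without single arrays these 3 differences ranged from -0.12 to 0.016 for Plat, from -0.12 to 0.061 for Plaur and from -0.023 to 0.11 for Serpinb2. Plau and Serpinb2 could not be tested with a minimum mean of 5. With the replicate block 0 members were called, and the number of genes called over all genes was 230, 164 and 203 for IR minus NIR, IR minus PA and NIR minus PA, against 300, 192 and 236 without it. Arrays of different groups with the same number did not deviate together (r from -0.20 to 0.097 over genes in 9 pairs), so the numbers were not taken to pair them.

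The count over the 57 pathway genes was less firm. For IR minus NIR it was 2 with the probe sets of each gene averaged (Itgb5 and Mmp9), and 0 to 1 without single arrays. For IR minus PA it was 0 with every probe set, 2 with the compared groups alone (Itgb5 and Serpinb1a), and 0 to 2 without single arrays. For NIR minus PA it was 1 with a minimum mean of 5 (Mmp9), 1 with averaged probe sets (Mmp9), 1 with eBayes trend and robust (Cav1), and 0 to 1 without single arrays. The share of all genes called also moved: for IR minus NIR 11 genes were called with the compared groups alone, and without single arrays the counts ran from 77 to 271, from 99 to 214 for IR minus PA, from 121 to 370 for NIR minus PA and from 195 to 425 for the F test, against 426. The cause was not tested. The Plau and Serpinb2 probe sets are dim, which limits what their values can show.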
